A study of Mus musculus with 9 samples.

Results

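Oxidative phosphorylation genes were taken as the protein-coding genes whose GENCODE vM21 symbol starts with Nduf, Sdha, Sdhb, Sdhc, Sdhd, Uqcr, Cox4, Cox5, Cox6, Cox7, Cox8, Atp5 or mt-. The rule found 111 of the 54119 genes of the table, and 102 of them had at least 10 counts in at least 3 libraries. Of these 102 genes, 89 are encoded in the nucleus and 13 in the mitochondrial genome. No measured value other than this count minimum entered the rule. The symbols also take in 8 complex I assembly factors (Ndufaf) and 4 succinate dehydrogenase assembly factors (Sdhaf), which are not part of the finished complexes.

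Complexes I to IV of the inner mitochondrial membrane pass electrons from NADH and succinate to oxygen and, except for complex II, pump protons. Complex V, the ATP synthase, uses the returning protons to make ATP. Complex II is wholly nuclear encoded, whereas complexes I, III, IV and V combine nuclear encoded subunits with a few encoded in mitochondrial DNA, which is transcribed as long precursor RNAs that are cut into single mRNAs. Microglia, the resident macrophages of the brain, use both oxidative phosphorylation and glycolysis, and shift toward glycolysis when activated by inflammatory stimuli.

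The 9 libraries came from primary microglia of C57BL/6J mice, prepared from whole brains of E18 embryos as mixed glia and shaken off after 12–15 days. The cells had been transfected with a control siRNA (3 libraries), with siRNA against Chd8 (3 libraries) or with siRNA against Tsc2 (3 libraries), and libraries of a group are numbered 1 to 3. Small interfering RNAs (siRNA) direct the cell to cut mRNAs that pair with them. Chd8 encodes a chromatin remodeler and Tsc2 an inhibitor of the mTORC1 growth pathway. A biological replicate was a culture from a distinct mouse brain, and whether 1 number marks 1 culture is not stated. According to the methods, RNA was taken 3 days after the siRNA, the results text gives 3 days of stimulation with lipopolysaccharide (LPS, a bacterial cell wall component that activates microglia), and the sequencing is not among the experiments that the methods list as done without LPS. The sample descriptions do not mention LPS, so the state of activation is not certain from every source, and no source gives a difference in it between groups.

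Gene-matched counts per library ranged from 16869770 to 33122780. Chd8 was 118, 97.4 and 93.6 CPM (counts per 1000000 counts) in the control siRNA libraries and 86.8, 44.5 and 38.3 in the libraries labelled Chd8 siRNA 1, 2 and 3. Tsc2 was 40.8, 39.9 and 38.9 CPM in the controls and 24.6, 30.6 and 36.5 with Tsc2 siRNA, so each target was lower in its own 3 libraries than in any other library, though unevenly. Of 12 microglial markers all were in the table, and their sum was 2695–3263 CPM in the controls, 2962–3635 with Chd8 siRNA and 3235–3430.1 with Tsc2 siRNA, although Tmem119 averaged under 1 CPM in every group. Astrocyte markers summed to 14.4–106, 13.4–46.6 and 11.6–50.9 CPM in the same order, and fibroblast and vessel markers to 20.2–68.9, 18.2–31.1 and 15.6–49.7 CPM. Oligodendrocyte lineage markers summed to 19.8–26.3, 19.3–27.2 and 11.4–24.4 CPM and neuronal markers to 4.22–15.2, 2.61–9.34 and 2.61–3.37. With the replicate number fitted as a block, the median log2 fold change of the 7 astrocyte markers was −0.32 with Chd8 siRNA and −0.49 with Tsc2 siRNA, with 2 and 2 at an unadjusted p under 0.05, all lower, and 2 and 1 of the 7 above 0. Over the 4 fibroblast and vessel markers tested it was −0.44 and −0.52, with 1 and 2 at that p, all lower, and 0 and 1 of the 4 above 0. The 11 microglial markers tested had medians of 0.16 and 0.12, with 4 higher and 2 lower at that p for Chd8 siRNA and 3 higher and 1 lower for Tsc2 siRNA. The 4 oligodendrocyte lineage markers tested had medians of 0.07 and −0.49, with 0 at that p and 3 and 1 of the 4 above 0. The 3 neuronal markers tested had medians of −0.27 and −0.93, with 0 and 1 at that p, which was lower, and 0 of the 3 above 0 in either comparison. Over all genes, 6.73% were higher and 6.12% lower at that p for Chd8 siRNA, and 5.44% and 5.23% for Tsc2 siRNA. Of all these markers 1 was called (0.535% of all genes were for Chd8 siRNA and 0.387% for Tsc2 siRNA), Col1a1 with Chd8 siRNA (−1.31 ± 0.25 on the log2 scale with its standard error, adjusted p = 0.0218 from edgeR), and it is named here after its value was seen. The part of these markers in the results that follow was not tested. In bulk RNA, fewer cells of a type and less RNA per cell cannot be told apart.

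Levels between genes were compared as TPM (here counts per kilobase of annotated transcript scaled to 1000000 in each library). The mitochondrially encoded mRNAs stood above the nuclear ones: their median was 147 TPM over 13 genes, from 16.97 for mt-Nd3 to 843 for mt-Co1, the catalytic subunit of complex IV. Among the nuclear classes, the class medians were 21.4 TPM for complex IV, 18.6 for complex V and 15.6 for complex III. They were 7.98 TPM for the accessory and 6.65 for the core subunits of complex I, and 5.103 for complex II with its assembly factors. The complex I assembly factors were lowest, with a median of 1.02 TPM and a highest value of 3.77 for Ndufaf8. The most abundant members of nuclear classes included Atp5b, the catalytic beta subunit of complex V (88.04 TPM), Cox6c of complex IV (74.5), Uqcrb of complex III (34.4), Ndufa2 of the complex I accessory subunits (21.5), and Sdha, the flavoprotein of complex II (20.4). Of the nuclear members, 14 had under 80% of their counts on protein-coding transcripts, where the median was 96.4% over 89, so their levels include non-coding transcripts. No test was made between classes, whose medians rest on 7 to 29 genes each and share the same 9 libraries.

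Where a subunit has a tissue-restricted isoform, the general isoform was detected and the restricted one had few or no counts. Cox4i1 averaged 58.3 TPM, whereas Cox4i2 had 6 counts over all 9 libraries. Cox6a1, Cox6b1 and Cox8a averaged 28.7, 21.4 and 33.3 TPM, and their muscle or testis counterparts Cox6a2, Cox6b2 and Cox8b had 36, 12 and 0 counts in all. Cox7a2 (10.9 TPM) and Cox7a2l (11.3 TPM) were present beside 38 counts of the muscle form Cox7a1. Ndufa4, now assigned to complex IV, averaged 7.29 TPM, and its hypoxia-induced paralog Ndufa4l2 had 1 count. The 3 genes for the identical c subunit of complex V were all expressed, with Atp5g3 at 17.8, Atp5g2 at 5.91 and Atp5g1 at 5.06 TPM. The 9 members that missed the count minimum were Cox4i2, Cox6a2, Cox6b2, Cox7a1, Cox7b2, Cox8b, Cox8c, Ndufa4l2 and a second gene entry named Atp5o, which had 0 counts.

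The first question was whether lowering Chd8 or Tsc2 changed these transcripts. With a false discovery rate (FDR) of 0.05 and a fold change of at least 1.5, edgeR's quasi-likelihood test called 0 of 101 members in either comparison with control siRNA, and 0% of all 16273 genes tested. Atp5s, the remaining member kept, was too low for the fit. DESeq2 and limma-voom also called 0 members. The replicate numbers paired the libraries, so a fit with the number as a block was read beside it: for Chd8 siRNA it called 0.535% of genes, for Tsc2 siRNA 0.387%, and again 0 members in both. The statements that follow are therefore about small shifts, given with their spread, and no single member passed the test. Without the block edgeR did not call the targets either, at −0.86 ± 0.28 (Chd8) and −0.38 ± 0.15 (Tsc2), log2 fold change and standard error. With the block Chd8 was called (−0.93 ± 0.14, adjusted p = 0.00777 from edgeR) and Tsc2 was not (−0.39 ± 0.12, adjusted p = 0.219). A lack of calls is thus not a lack of change.

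With Chd8 siRNA, most nuclear encoded members sat slightly higher than with control siRNA. The median log2 fold change was 0.15 over 88 nuclear encoded members, against −0.02 over all genes tested. It was above 0 for 71 of 88, against 47.8% of all genes. The libraries of 1 replicate number, taken as pairs, gave medians of 0.25, 0.11 and 0.16 at numbers 1, 2 and 3, with 76, 57 and 65 of 88 members higher. Chd8 went from 118 to 86.8 CPM at number 1, from 97.4 to 44.5 at 2 and from 93.6 to 38.3 at 3. The largest median thus came with the smallest fall in Chd8, and no relation between them was tested. At every number 39 of 88 were higher, against 17.7% of all genes, and 1 was lower, against 18.3%. Groups did not overlap for 8 members, Atp5c1, Ndufa7, Ndufaf8, Ndufb2, Ndufb5, Sdhc, Uqcrc2 and Uqcrfs1, all higher with Chd8 siRNA, against 4.17% of all genes higher and 4.92% lower without overlap. Without overlap, an exact permutation test of 3 against 3 libraries always gives its smallest p, 0.1 (two-sided). For these 8 that p therefore adds nothing to the lack of overlap.

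Unadjusted, 6 of 101 members had p under 0.05, all higher with Chd8 siRNA, against 1.72% of all genes higher and 2.1% lower. With the replicate block 19 members did, 18 nuclear encoded and mt-Atp6, again all higher, against 6.73% of all genes higher and 6.12% lower. Their lowest adjusted p was 0.0876, for Sdhc (edgeR with the block, Benjamini-Hochberg over all genes).

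**Figure D1:**
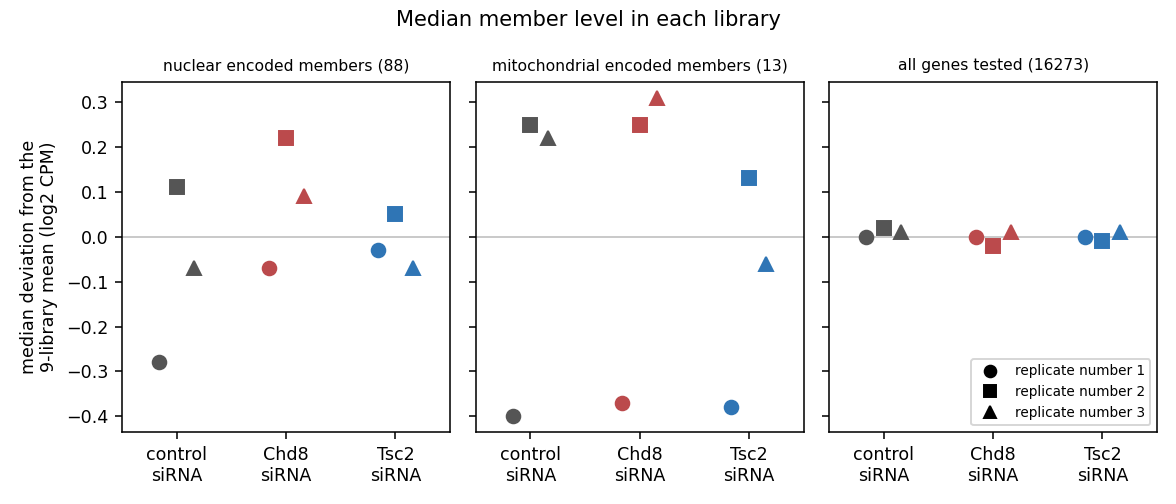
Median deviation of the members in each library from the 9-library mean (y axis, log2 CPM), for 88 nuclear encoded members, 13 mitochondrially encoded members and all genes tested; symbols mark the replicate number and colors the siRNA. Control siRNA 1 was lowest for the nuclear members at −0.28, and all 3 libraries numbered 1 were low for the mitochondrial members.

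The level of the nuclear members varied from library to library by more than the shift between groups. Their median deviation from the 9-library mean was −0.28, 0.11 and −0.07 in the control siRNA libraries, −0.07, 0.22 and 0.09 with Chd8 siRNA, and −0.03, 0.05 and −0.07 with Tsc2 siRNA, so the groups overlapped. Control siRNA 1 stood lowest, and without it the median fold change for Chd8 siRNA was 0.08. Over all genes no library deviated by more than 0.02. The nuclear members are short, with a median transcript length of 872 bases against 2671 for all genes. Among genes under 1000 bases, the median for Chd8 siRNA was 0.01 over 1615 genes outside the members and 0.17 over 52 nuclear members, and between 1000 and 2000 bases it was 0.02 and 0.17. Between 2000 and 4000 bases the gap was smaller, at −0.02 over 7015 other genes and 0.04 over 9 nuclear members.

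**Figure D2:**
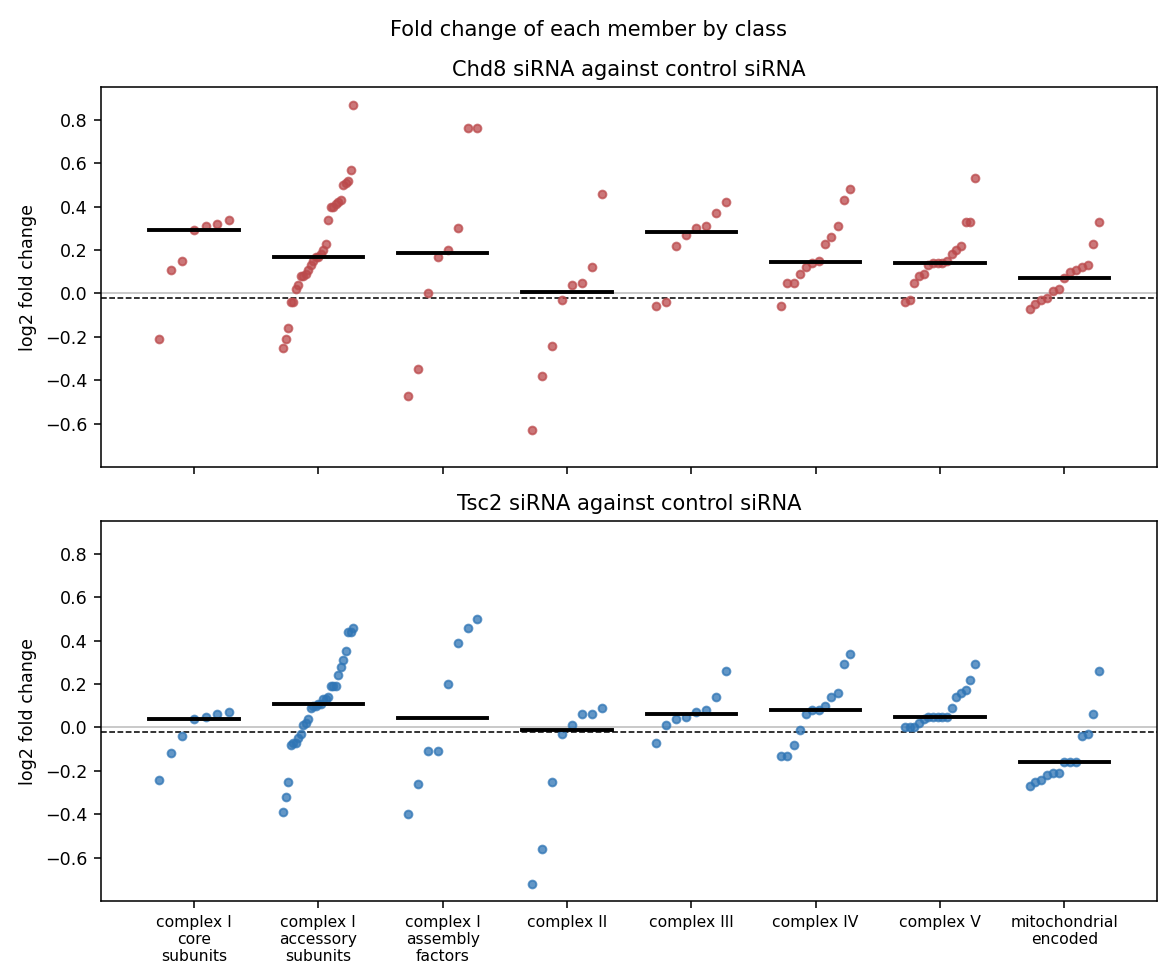
Log2 fold change (y axis) of each tested member against control siRNA, by class (x axis), for Chd8 siRNA (above) and Tsc2 siRNA (below); points are genes, bars are class medians and the dashed line is the median of all genes tested. With Chd8 siRNA every nuclear class but complex II had a median of at least 0.14, and with Tsc2 siRNA the mitochondrially encoded genes had the lowest median, −0.16.

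In complex I, the NADH dehydrogenase that feeds electrons into the chain, the 7 nuclear encoded core subunits had a median of 0.29 with Chd8 siRNA, and 6 of 7 were above 0. Ndufs1, an iron-sulfur subunit, was 25.4, 26.97 and 28.9 CPM in the control siRNA libraries and 31.02, 27.3 and 40.8 with Chd8 siRNA, and the groups overlapped. It differed by 0.29 on the log2 scale with a standard error of 0.17 (edgeR adjusted p = 1). Of its counts, 64.0% were on protein-coding transcripts and 35.6% on transcripts with a retained intron. Errors of all log2 fold changes that follow are standard errors. Ndufs8 was the 1 core subunit below 0, at −0.21 ± 0.17. With Tsc2 siRNA the core median was 0.04 on the same scale, and Ndufs8 was 10.5, 10.04 and 12.8 CPM in the control siRNA libraries and 9.69, 9.02 and 9.52 with Tsc2 siRNA, with all 3 Tsc2 siRNA values below the controls and a log2 fold change of −0.24 ± 0.17.

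The 29 accessory subunits of complex I, which surround the core and are needed for its assembly and stability, had a median of 0.17 with Chd8 siRNA and 0.11 with Tsc2 siRNA. Ndufa7 was 8.03, 8.805 and 7.51 CPM in the control siRNA libraries, 10.6, 11.9 and 12.2 with Chd8 siRNA and 6.53, 8.67 and 7.88 with Tsc2 siRNA. Its Chd8 siRNA values lay above all other libraries, with a log2 fold change of 0.51 ± 0.19 (edgeR adjusted p = 1 and 0.207 with the block). Of its counts, 73.3% were on protein-coding transcripts and the rest on non-coding ones. Ndufb5 was 7.35, 7.51 and 8.54 CPM in the control siRNA libraries, 10.3, 11.03 and 9.58 with Chd8 siRNA and 11.95, 9.68 and 10.1 with Tsc2 siRNA. Both siRNA groups lay above the controls, at 0.40 ± 0.18 and 0.44 ± 0.18, with an adjusted p = 1 from edgeR in each. These comparisons share the control libraries. Ndufa8, named after its values were seen, was 6.599, 9.79 and 6.26 CPM in the control siRNA libraries and 9.75, 11.5 and 12.3 with Chd8 siRNA, so that 1 Chd8 siRNA library fell below the highest control, with 0.57 ± 0.23. The most abundant, Ndufa2, was 19.5, 28.3 and 25.7 CPM in the control siRNA libraries and 20.2, 28.1 and 26.3 with Chd8 siRNA, at 0.02 ± 0.19. Ndufb3 had the largest value, 0.87 ± 0.44, at under 6 CPM in every library.

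The 8 complex I assembly factors, chaperones that leave the finished complex, had the highest spread of the classes, with a median coefficient of variation over the 9 libraries of 33.3% against 17.2% for all nuclear members. Ndufaf8, which stabilizes another assembly factor, Ndufaf5, was 3.02, 3.45 and 4.505 CPM in the control siRNA libraries, 5.29, 7.72 and 5.68 with Chd8 siRNA and 3.46, 6.72 and 4.92 with Tsc2 siRNA. All 3 Chd8 siRNA values were above the controls, with a log2 fold change of 0.76 ± 0.31 (edgeR adjusted p = 1 and 0.191 with the block). For Tsc2 siRNA it was 0.46 ± 0.31, with overlapping groups. The other 7 ranged from −0.47 (Ndufaf2) to 0.76 (Ndufaf7) with Chd8 siRNA.

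Complex II, succinate dehydrogenase, links the citric acid cycle to the chain. Sdhc, 1 of its membrane anchors, had the lowest p of all members. It was 21.8, 22.5 and 21.8 CPM in the control siRNA libraries, 29.6, 33.5 and 27.8 with Chd8 siRNA and 22.5, 26.2 and 20.2 with Tsc2 siRNA. The Chd8 siRNA values lay above all other 6 libraries, whereas the Tsc2 siRNA values spanned the controls. The log2 fold change was 0.46 ± 0.15 for Chd8 siRNA (edgeR adjusted p = 1 and 0.0876 with the block). The other 3 subunits lay closer to the controls, although the difference between subunits was not tested. Sdhd, the other anchor, was 22.8, 21.1 and 21.02 CPM in the control siRNA libraries and 25.4, 18.2 and 23.7 with Chd8 siRNA, at 0.05 ± 0.16, and Sdhb, the iron-sulfur subunit, was at 0.12 ± 0.14. Sdha was 72.5, 68.8 and 71.4 CPM in the control siRNA libraries and 68.3, 68.1 and 82.97 with Chd8 siRNA, at 0.04 ± 0.12. Sdhaf1, an assembly factor, lay between 0.339 and 1.91 CPM, too low for a statement on direction (log2 fold change −0.56 ± 0.75 for Tsc2 siRNA).

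In complex III, which passes electrons from ubiquinol to cytochrome c, 6 of 8 nuclear encoded subunits were above 0 with Chd8 siRNA, with a class median of 0.28. Uqcrc2, a core subunit, was 18.6, 19.5 and 19.8 CPM in the control siRNA libraries, 24.4, 26.2 and 20.7 with Chd8 siRNA and 19.6, 23.3 and 21.1 with Tsc2 siRNA. The Chd8 siRNA values were all above the controls, with a log2 fold change of 0.30 ± 0.15 (edgeR adjusted p = 1). Of the Uqcrc2 counts, 77.9% were on protein-coding transcripts and the rest on non-coding ones. Uqcrh, the hinge protein, was 13.7, 25.2 and 17.2 CPM in the control siRNA libraries, 19.9, 28.9 and 24.1 with Chd8 siRNA and 21.6, 24.4 and 21.02 with Tsc2 siRNA, and the groups overlapped, with control siRNA 2 the highest control. Within replicate numbers it was higher in all 3 pairs for Chd8 siRNA, at 0.40 ± 0.14 with the block (adjusted p = 0.228 from edgeR). The other core subunit, Uqcrc1, was the least variable of all members, with a coefficient of variation of 5.91%, and was at −0.06 ± 0.12. Uqcrb was at −0.04 ± 0.14. With Tsc2 siRNA the class median was 0.06.

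In complex IV, cytochrome c oxidase, 11 of 12 nuclear encoded members were above 0 with Chd8 siRNA, with a median of 0.14. Cox7c was 15.9, 24.4 and 20.1 CPM in the control siRNA libraries, 22.3, 34.6 and 27.4 with Chd8 siRNA and 21.1, 21.9 and 19.8 with Tsc2 siRNA. Chd8 siRNA 1 fell below control siRNA 2, so the groups overlapped, but each Chd8 siRNA library was above the control of its own number. The log2 fold change was 0.48 ± 0.21 (edgeR adjusted p = 1 and 0.12 with the block). Cox6b1, which bridges the dimer, was 17.3, 23.6 and 24.4 CPM in the control siRNA libraries, 21.1, 35.2 and 31.8 with Chd8 siRNA and 28.4, 26.97 and 24.2 with Tsc2 siRNA, with a log2 fold change of 0.43 ± 0.21 with Chd8 siRNA against 0.29 ± 0.21 with Tsc2 siRNA. Cox6c and Cox4i1, the most abundant nuclear encoded subunits of the complex by TPM, were at 0.15 ± 0.22 and 0.09 ± 0.15. Cox7a2l, a factor that joins complexes III and IV and of which C57BL/6 mice carry a shortened form known not to do so, did not show this order and was 24.7, 24.998 and 16.9 CPM in the control siRNA libraries, 26.4, 19.7 and 17.9 with Chd8 siRNA and 25.1, 28.4 and 31.1 with Tsc2 siRNA. The Tsc2 siRNA values were above the controls by 0.34 ± 0.21 on the log2 scale (adjusted p = 1 from edgeR and 0.438 with the block), and Chd8 siRNA was at −0.06 ± 0.21.

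In complex V, 14 of 16 tested members were above 0 with Chd8 siRNA, with a median of 0.14, and 15 of 16 were above 0 with Tsc2 siRNA, with a median of 0.05. Of all genes, 47.8% and 47.6% were above 0. The median deviation of the class was −0.27, 0.11 and −0.08 in the control siRNA libraries and −0.09, 0.1 and −0.08 with Tsc2 siRNA. The control and Tsc2 siRNA libraries thus differed mainly at number 1. Atp5c1, the gamma subunit that turns inside the catalytic head, was 39.4, 51.2 and 47.8 CPM in the control siRNA libraries, 54.2, 59.1 and 61.002 with Chd8 siRNA and 47.7, 53.2 and 46.6 with Tsc2 siRNA. All 3 Chd8 siRNA values were above all other libraries, with a log2 fold change of 0.33 ± 0.13 (edgeR adjusted p = 1 and 0.128 with the block). Atp5b, in the same head, was 200.2, 242 and 206 CPM in the control siRNA libraries and 206, 237 and 228 with Chd8 siRNA, at 0.05 ± 0.12. Atp5j, of the peripheral stalk, was 41.7, 56.7 and 51.3 CPM in the control siRNA libraries, 57.1, 56.4 and 51.3 with Chd8 siRNA and 58.9, 59.1 and 56.3 with Tsc2 siRNA. It was at 0.14 ± 0.14 with Chd8 siRNA, 0.22 ± 0.14 with Tsc2 siRNA, and control siRNA 1 was the lowest library. Atp5g1, Atp5g2 and Atp5g3 were at −0.03 ± 0.18, −0.04 ± 0.46 and 0.14 ± 0.14 for Chd8 siRNA. Atp5g2 is uncertain, since it was 3.28 CPM in control siRNA 1 and 11.8 in control siRNA 3, and a processed copy, Gm10175, identical over 645 bases, took 18.1% of their joint count.

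**Figure D3:**
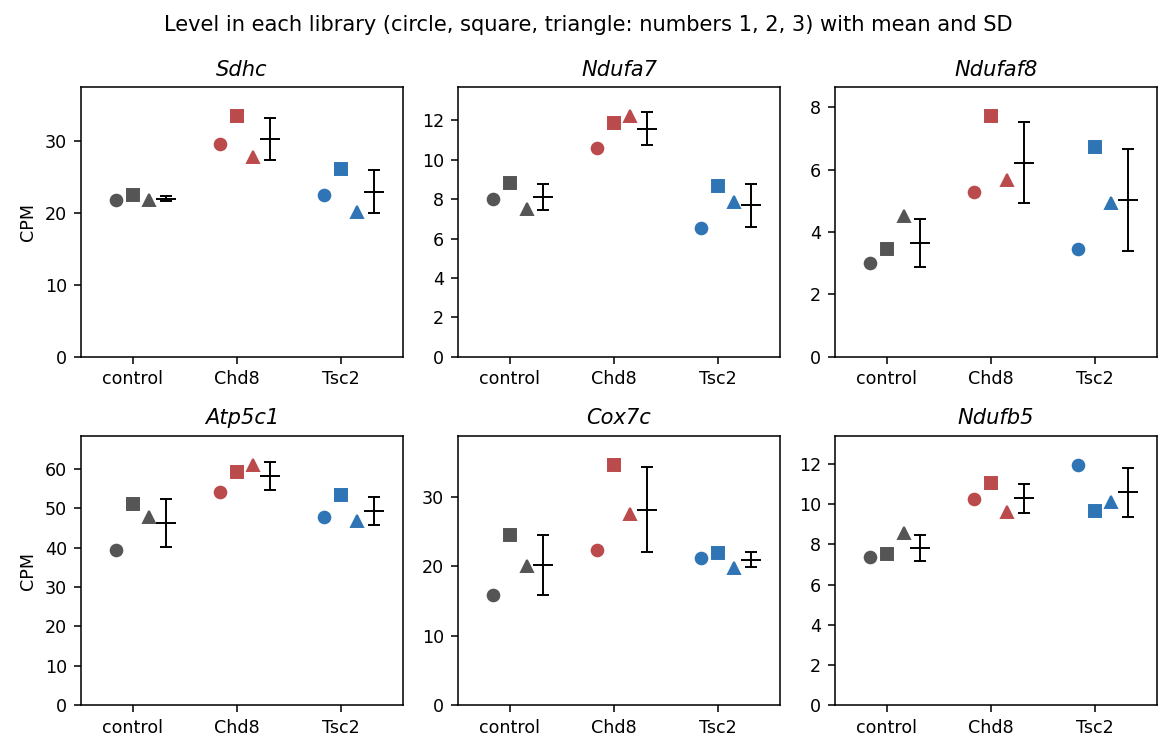
Level in CPM (y axis, from 0) of 6 nuclear encoded members, by siRNA (x axis); circles, squares and triangles are replicate numbers 1, 2 and 3, and the crossed bars give the mean and SD of 3 libraries. Sdhc was 22.01 ± 0.405 CPM with control siRNA and 30.3 ± 2.88 with Chd8 siRNA.

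The 13 mitochondrially encoded mRNAs were low in all libraries numbered 1. They took 0.4603, 0.471 and 0.479% of gene-matched counts in the libraries numbered 1 of control, Chd8 and Tsc2 siRNA, 0.6303, 0.584 and 0.563% in those numbered 2 and 0.686, 0.663 and 0.546% in those numbered 3. The 3 libraries numbered 1 were the lowest of their groups. By group the share was 0.592% ± 0.118 (SD, n = 3) with control siRNA, 0.573% ± 0.0968 with Chd8 siRNA and 0.529% ± 0.0442 with Tsc2 siRNA, which differ by less than the SD between control libraries. The mitochondrial ribosomal RNAs, mt-Rnr1 and mt-Rnr2, took 4.98–6.17% of counts and the nuclear members 0.189–0.241%. The ratio of mitochondrially to nuclear encoded member counts was 2.43, 2.16 and 2.13 at number 1, 2.69, 2.44 and 2.5005 at number 2 and 3.02, 2.75 and 2.47 at number 3, in the same order of siRNA, so it was highest with control siRNA at every number. These shares and ratios take no account of transcript length.

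**Figure D4:**
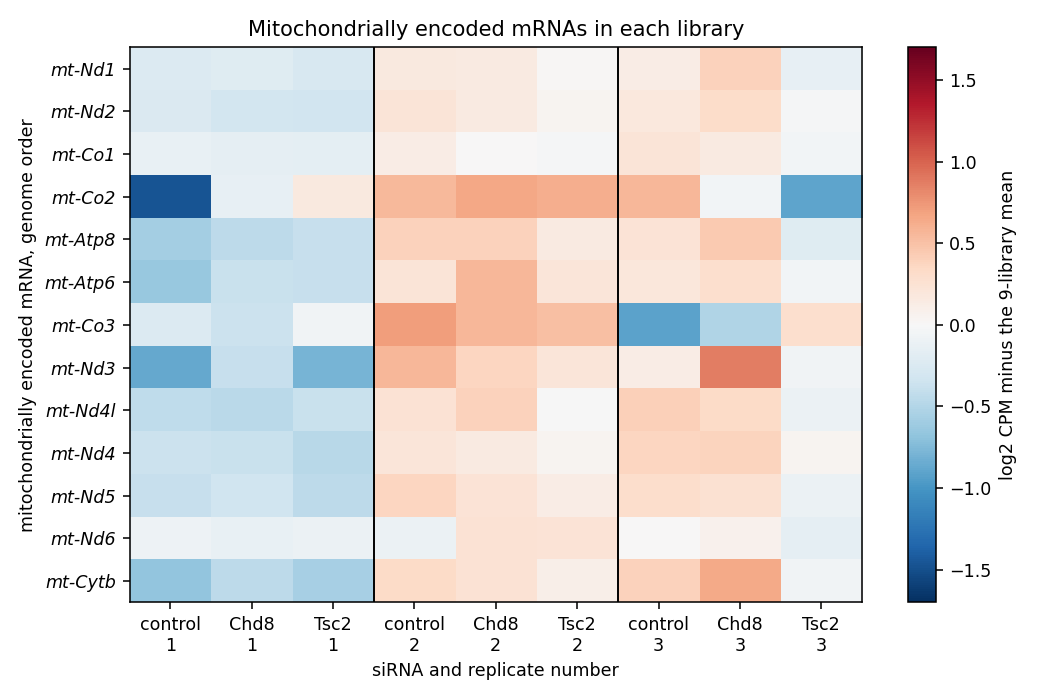
Log2 (CPM + 0.5) of the 13 mitochondrially encoded mRNAs (y axis, in genome order) in each library (x axis, by replicate number) minus the 9-library mean of that gene. In the libraries numbered 1, 12 of 13 genes lie below their mean in every library (mt-Co2 is above it in Tsc2 siRNA 1). mt-Co2 in control siRNA 1 and Tsc2 siRNA 3, mt-Co3 in control siRNA 3 and mt-Nd3 in control siRNA 1 are among the darkest cells.

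With Chd8 siRNA, the mitochondrially encoded mRNAs had a median log2 fold change of 0.07, with 9 of 13 above 0, and with Tsc2 siRNA of −0.16, with 2 of 13 above 0, against 47.6% of all genes. Without the block, 0 of 13 had an unadjusted p under 0.05 from edgeR in either comparison, and with it 1 did for Chd8 siRNA, which was higher (6.73% of all genes were). For Tsc2 siRNA 4 then had lower values and 1, mt-Co3, a higher one (5.23% and 5.44% of all genes), and mt-Co3 turned below 0 once its nuclear copy, described further on, was added. By replicate number, the medians for Tsc2 siRNA were 0.06, −0.17 and −0.28 at 1, 2 and 3, and 5 of 13 were lower at every number, against 16.3% of all genes. For Chd8 siRNA they were 0.02, −0.06 and 0.09. Tsc2 went from 40.8 to 24.6 CPM with Tsc2 siRNA at number 1, from 39.9 to 30.6 at 2 and from 38.9 to 36.5 at 3. The lowest median for Tsc2 siRNA thus came with the smallest fall in Tsc2, and no relation between them was tested. The medians over all numbers moved with single libraries. Without control siRNA 1 they were −0.39 (Tsc2 siRNA) and −0.14 (Chd8 siRNA), and the latter was also below 0 without Chd8 siRNA 2 (−0.03) or Chd8 siRNA 3 (−0.05).

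Among the subunits of complex I, mt-Nd5 was 504, 850.5 and 817 CPM in the control siRNA libraries, 522, 781 and 792 with Chd8 siRNA and 485, 724 and 621 with Tsc2 siRNA. Each Tsc2 siRNA library was below the control of its number, with a log2 fold change of −0.23 ± 0.07 with the block (adjusted p = 0.229 from edgeR), while the groups overlapped. mt-Nd4 was at −0.19 ± 0.07 and mt-Nd4l, whose reading frame overlaps that of mt-Nd4 on the same precursor, at −0.23 ± 0.11. mt-Nd1 and mt-Nd2 were both at −0.15, with standard errors of 0.09 and 0.08. mt-Nd3, the least abundant, was 5.73, 16.3 and 11.97 CPM in the control siRNA libraries, 8.17, 14.2 and 20.4 with Chd8 siRNA and 6.103, 12.6 and 10.4 with Tsc2 siRNA, a 40.9% coefficient of variation. mt-Co1 and mt-Nd6 were the most even of the 13, with 9.88% and 11.05%. mt-Nd6 is the one mRNA read from the other DNA strand, and it was 70.1, 69.3 and 74.6 CPM in the control siRNA libraries, 68.2, 88.6 and 78.2 with Chd8 siRNA and 69.5, 87.1 and 66.6 with Tsc2 siRNA.

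mt-Cytb, the cytochrome b of complex III, was 265, 529.8 and 555 CPM in the control siRNA libraries, 310.4, 499 and 658 with Chd8 siRNA and 285, 452 and 405 with Tsc2 siRNA. Control siRNA 1 was well under the other two controls. The log2 fold changes with the block were 0.13 ± 0.10 with Chd8 siRNA, −0.19 ± 0.10 for Tsc2 siRNA. mt-Co1 was 2350.5, 2811 and 2976 CPM in the control siRNA libraries, 2306, 2574 and 2863 with Chd8 siRNA and 2285, 2534 and 2477 with Tsc2 siRNA. It was lower in each Tsc2 siRNA library than in its numbered control, at −0.15 ± 0.06 on the log2 scale (adjusted p = 0.353 from edgeR with the block). In complex V, mt-Atp6 was 212, 386 and 378 CPM in the control siRNA libraries and 254, 491 and 403 with Chd8 siRNA, each above its numbered control, at 0.23 ± 0.09 (adjusted p = 0.259 from edgeR with the block). mt-Atp8, which overlaps mt-Atp6, was at 0.12 ± 0.12 in the same comparison.

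mt-Co2 and mt-Co3, the other 2 mitochondrially encoded subunits of complex IV, were among the 3 most variable members of the 13, with coefficients of variation of 40.7% and 36.8%. mt-Co2 was 76.1, 310.4 and 313 CPM in the control siRNA libraries, 192, 336 and 206 with Chd8 siRNA and 239, 326 and 114 with Tsc2 siRNA. Gm28661 on chromosome 1, an annotated copy of mt-Co2 in nuclear DNA, is identical to it over 681 bases and took 40.8% of their joint count. Its own counts were 186, 118 and 112 CPM with control siRNA, 104, 65.6 and 302 with Chd8 siRNA and 64.3, 67.3 and 237 with Tsc2 siRNA, above those of mt-Co2 in control siRNA 1, Chd8 siRNA 3 and Tsc2 siRNA 3. Added together, the highest library was 1.94 times the lowest, against 4.42 times for mt-Co2 alone. mt-Co3 was 175, 339 and 109 CPM in the control siRNA libraries, 159.7, 306 and 145 with Chd8 siRNA and 198, 296 and 252 with Tsc2 siRNA, and Gm28437, identical over 783 bases, took 23.2% of the joint count, most of it in control siRNA 3 and Chd8 siRNA 3. With the copies added, the sum for mt-Co3 was 181, 353 and 329 CPM with control siRNA and 212, 296 and 255 with Tsc2 siRNA. The log2 fold change for Tsc2 siRNA was then −0.13 ± 0.11 with the block, where mt-Co3 alone gave 0.40 ± 0.17, so its direction turned.

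The first 60 bases of mt-Co2 are shown because the table split the same sequence between 2 genes; they are the plus strand of chrM:7013-7072 and equally the minus strand of chr1:24615506-24615565 (GRCm38).
mt-Co2 and Gm28661: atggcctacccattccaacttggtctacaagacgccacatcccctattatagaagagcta
By contrast, Gm29216 holds 492 bases of mt-Co1 with 6 mismatches, all of them in its first 60 bases, and took 2.14% of the joint count. These bases are shown with the differing ones in capitals, from chrM:6381-6440 on the plus strand and chr1:24616138-24616197 on the minus strand.
mt-Co1: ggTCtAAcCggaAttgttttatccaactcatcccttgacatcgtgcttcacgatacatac
Gm29216: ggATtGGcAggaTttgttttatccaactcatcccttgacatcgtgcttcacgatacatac
Whether any of these reads came from the nuclear copies was not tested. In all, 16 members had such a copy on the same strand (at least 99% identity over at least 90% of the copy), and for 6 of them it took over 5% of the joint count. Beside the mitochondrial genes these were Atp5g2, Atp5l, Ndufa12 and Ndufb4, the last with 37.03% on Ndufb4c.

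**Figure D5:**
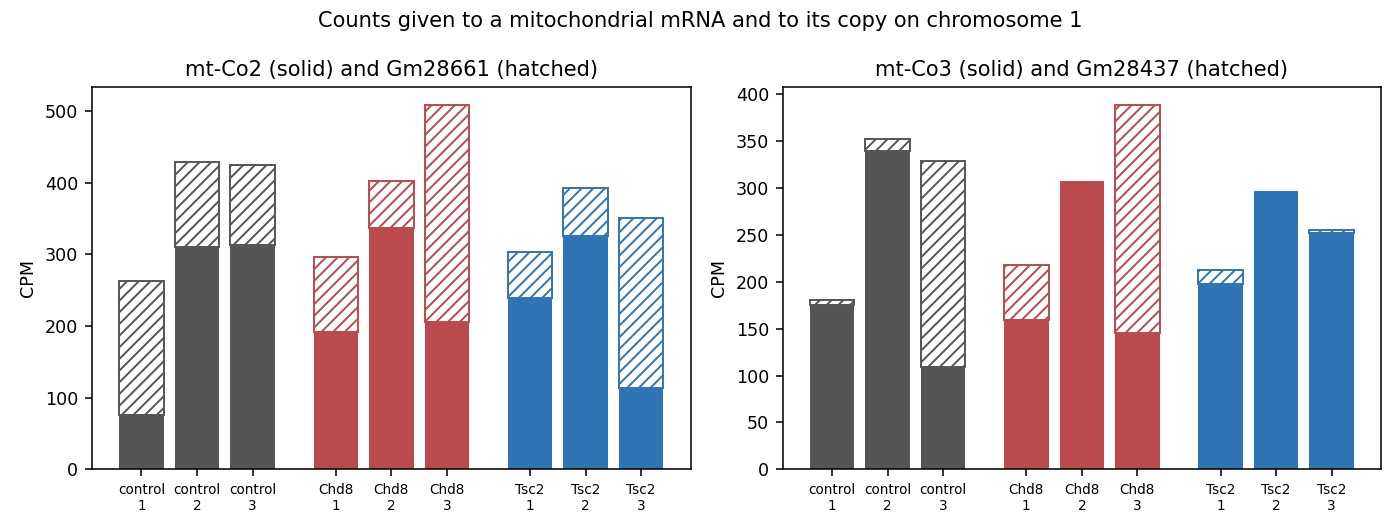
CPM (y axis) of mt-Co2 and mt-Co3 (solid) with their identical nuclear copies Gm28661 and Gm28437 (hatched) stacked on top, in each library (x axis). Control siRNA 1 and Tsc2 siRNA 3 have most of the joint mt-Co2 count on the copy, as does Chd8 siRNA 3.

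With Tsc2 siRNA, the nuclear encoded members had a median log2 fold change of 0.06, with 63 of 88 above 0 against 47.6% of all genes. By replicate number the medians were 0.27, −0.06 and −0.02, so the difference was seen at number 1 and not at 2 or 3, and without control siRNA 1 the median was −0.02. Number 1 was also where Tsc2 fell most, from 40.8 to 24.6 CPM, and a relation to this fall was not tested. At every number, 13 of 88 were higher, against 15.5% of all genes, and 4 were lower, against 16.3%. Ndufb5 was the one member with an unadjusted p under 0.05 (1.2% of all genes were higher and 1.41% lower). With the block there were 4 higher and 4 lower (5.44% and 5.23% of all genes), the 4 lower all mitochondrially encoded. Among the 101 tested members, 4 lay wholly above the controls, Cox7a2l, Ndufa5, Ndufb5 and Sdha, and 2 wholly below, Ndufb6 and Ndufs8, against 3.87% and 4.23% of all genes. For Cox7a2l, Ndufa5 and Sdha the lowest Tsc2 siRNA library was only just above the highest control. Ndufa5 and Ndufb6 were named after their values were seen.

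Chd8 siRNA and Tsc2 siRNA were also compared with each other directly. Again 0 of 101 members were called (0% of all genes, and 0.221% with the block, again with 0 members). The median log2 fold change of Chd8 over Tsc2 siRNA was 0.12 for the nuclear and 0.20 for the mitochondrially encoded members, against 0.00 for all genes. Single libraries moved both medians: the nuclear one was 0.01 without Chd8 siRNA 2 and 0.08 without Tsc2 siRNA 3, and the mitochondrial one was 0.09 without Chd8 siRNA 3, 0.12 without Chd8 siRNA 2 or without Tsc2 siRNA 1, 0.34 without Tsc2 siRNA 2 and 0.37 without Chd8 siRNA 1. With the block, 14 members had an unadjusted p under 0.05 and were higher with Chd8 siRNA (5.46% of all genes), 8 of them mitochondrially encoded, and 2 had lower values, Cox7a2l and mt-Co3 (5.27%). The direction of mt-Co3 rests on the split with its copy: it was −0.38 ± 0.17 alone and 0.23 ± 0.11 with Gm28437 added, with the block. Sdhc differed by 0.40 ± 0.15 and Ndufa7 by 0.59 ± 0.19 (adjusted p = 1 for both from edgeR, and 0.18 and 0.184 with the block).

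Outside the members, 65 genes of the same pathway were read from the same fits: electron carriers, ubiquinone enzymes, assembly factors, transcription factors of nuclear respiratory genes and the machinery of mitochondrial transcription and RNA handling. All 65 were tested. Their median log2 fold change was 0.04 with Chd8 siRNA, 0.03 for Tsc2 siRNA, with 42 and 39 of 65 above 0. Without the block edgeR called 0 of them, with 2 and 3 at an unadjusted p under 0.05, all higher (1.72% and 1.2% of all genes were). With it, 1 was called in the Chd8 siRNA comparison, 0 in that of Tsc2 siRNA, against 0.535% and 0.387% of all genes. At an unadjusted p under 0.05 there were then 4 higher and 1 lower for Chd8 siRNA (6.73% and 6.12% of all genes), and 6 higher and 0 lower for Tsc2 siRNA (5.44% and 5.23%). Those higher with Chd8 siRNA were Gabpa, Gabpb1, Surf1 and Cycs and the lower one was Acad9, and those higher with Tsc2 siRNA were Ppargc1b, Surf1, Tmem70, Gabpb1, Sco1 and Cox17. Fold changes of these genes are given with the block. The called gene was Gabpa, which encodes the DNA-binding subunit of GABP (also known as nuclear respiratory factor 2), an ETS-family factor of many nuclear encoded respiratory genes. It was 51.2, 59.3 and 51.95 CPM in the control siRNA libraries, 81.7, 101 and 138 with Chd8 siRNA and 51.8, 52.5 and 61.1 with Tsc2 siRNA. Every Chd8 siRNA library was above all other libraries, with a log2 fold change of 0.95 ± 0.12 (adjusted p = 0.00343 from edgeR with the block, 0.983 without). Its partner Gabpb1 was at 0.26 ± 0.12 with Chd8 siRNA and 0.29 ± 0.12 with Tsc2 siRNA (adjusted p = 0.374 and 0.371 from edgeR). For Tsc2 siRNA, Gabpa was at 0.02 ± 0.12. In that comparison, Ppargc1b, a coactivator of respiratory genes, was 2.53, 8.62 and 4.59 CPM in the control siRNA libraries and 8.62, 10.1 and 16.1 with Tsc2 siRNA, with the lowest Tsc2 siRNA value level with the highest control, at 1.26 ± 0.28 (adjusted p = 0.0573 from edgeR and 1 without the block). Surf1, an assembly factor of complex IV, was at 0.89 ± 0.22 and Tmem70, of complex V, at 0.52 ± 0.18. Cycs, the cytochrome c that carries electrons from complex III to IV, was at 0.19 ± 0.09 with Chd8 siRNA, 0.15 ± 0.09 for Tsc2 siRNA. Gabpa, Gabpb1, Ppargc1b, Surf1, Tmem70, Cycs, Acad9, Sco1 and Cox17 were named after their values were seen.

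RefSeq promoters (250 bases before to 50 after the start, GRCm38.p6) were matched for 76 of 89 nuclear members, with 81 promoters. The 10-letter NRF-1 motif was in 27.6% of the 76, the ETS motif CCGGAAG in 27.6% and the YY1 motif AAGATGGC in 14.5%, on either strand. Of all 32851 promoters, 4.603%, 8.86% and 2.75% held them, and of the 81 promoters 27.2%, 25.9% and 13.6%. The median log2 fold change for Chd8 siRNA was 0.12 for members with the ETS motif and 0.19 for those without. For the NRF-1 motif it was 0.13 and 0.18, and for the YY1 motif 0.20 and 0.15. No test was made, and a match is a match of letters only. No matches of different motifs overlapped in the promoters shown.

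The promoters of the 3 members that had an unadjusted p under 0.05 for Chd8 siRNA and held a motif are shown, with that of Atp5j for its neighbour Gabpa, up to the base before the start, with motif matches in capitals. Atp5c1 (chr2:10080433-10080532, minus strand) and Ndufa8 (chr2:36049339-36049438, minus strand) hold the NRF-1 motif and Ndufaf8 (chr11:120098834-120098933, plus strand) the ETS motif. The whole Ndufaf8 promoter window also holds the YY1 motif, outside the stretch shown. Another promoter matched for Atp5c1 (chr2:10080461-10080760, minus strand) holds no match of these motifs.
Atp5c1: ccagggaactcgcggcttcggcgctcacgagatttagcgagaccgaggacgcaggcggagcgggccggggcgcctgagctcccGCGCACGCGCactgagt
Ndufa8: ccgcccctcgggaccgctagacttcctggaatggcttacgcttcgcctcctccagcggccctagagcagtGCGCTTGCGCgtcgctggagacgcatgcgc
Ndufaf8: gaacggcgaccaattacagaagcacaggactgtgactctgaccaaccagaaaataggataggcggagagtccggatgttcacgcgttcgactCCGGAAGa
Atp5j (chr16:84834977-84835094, minus strand) holds the YY1 and the ETS motif. Another promoter matched for Atp5j (chr16:84835576-84835875, minus strand) holds no match of these motifs. The Atp5j gene lies head to head with Gabpa, and their annotated transcripts overlap on opposite strands. Whether the counting used strand is not stated, so reads of the overlap may have gone to either gene.
Atp5j: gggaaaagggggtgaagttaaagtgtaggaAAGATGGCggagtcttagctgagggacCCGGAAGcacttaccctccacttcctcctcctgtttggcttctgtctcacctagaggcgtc
Atp5j was at 0.14 ± 0.14 for Chd8 siRNA where Gabpa was at 0.98 ± 0.18 (log2 fold change and standard error without the block). The difference between the 2 genes was not tested.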

How the data were processed

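RNA of 9 libraries of primary mouse microglia was sequenced by the authors from total RNA. The labels give a stranded SMARTer library kit and the methods an Illumina total RNA preparation, so the kit is uncertain. The deposited table holds estimated counts per transcript made by the authors with Salmon 0.14.1, and the submitters' processing notes name build mm10. Of 140948 transcripts, 1096 with 0.27% of counts matched no gene of GENCODE vM21. The others were summed to 54119 genes and rounded. Salmon divides reads among transcripts that share sequence, so identical copies of a gene split its count. Columns of other samples numbered 0. Members and lists were chosen with earlier results of these data known.

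Totals ran from 16869770 to 33122780 gene-matched counts. Genes passing edgeR's filterByExpr (minimum count 10) were scaled by TMM and tested with the quasi-likelihood F-test over all 9 libraries (edgeR 4.0.16, R 4.3.3), with Benjamini-Hochberg adjustment over 16273 genes. Calls needed an adjusted p of at most 0.05 and a change of at least 1.5-fold. CPM are on TMM-scaled totals, shares are of unscaled gene-matched counts, and a pseudocount of 0.5 was added before logarithms in the permutation tests and pairs. Replicate numbers in the labels paired libraries. Deviations from group means correlated at 0.244 to 0.521 over the 9 pairs with the same number and at −0.381 to 0.036 over the 18 others, so the number was also fitted as a block. P-values measure the spread between these libraries, and the median over members has no test. The steps were tested on simulated data with changes larger than most shifts reported here, so the recovery of such small shifts was not tested.

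Genes named by rule were the mitochondrially encoded members, any member at the FDR without or with the block, the lowest p and highest TPM of each nuclear class, isoform pairs and the targets. 1 gene the rule names is not reported here. Ndufa8, Ndufb2, Ndufb3, Ndufaf2, Ndufaf7, Sdhb, Sdhd, Uqcrc1 and Uqcrfs1 were added after their values were seen. Copies were found with BLAST+ 2.17.0. Alternatives were DESeq2 1.42.0, limma-voom (limma 3.58.1), other filters, size factors and library totals, 2 groups at a time and each library left out. Adding the copies, and nuclear library totals with the block, were chosen after seeing the data. Promoter sequences are from RefSeq (GRCm38.p6).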

Additional observations from a re-analysis of the deposited data

How the results depend on the processing

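No member was called in any comparison under any alternative run. Of 309 recomputed summary values (counts of calls, medians and shares), 270 stayed within 1 SD or 1.5 times the first value and 39 did not. For Chd8 siRNA, Tsc2 siRNA and Chd8 against Tsc2 siRNA, edgeR called 0 genes each, with 622, 425 and 504 at an unadjusted p under 0.05, DESeq2 called 9, 6 and 5, and edgeR with the replicate block 87, 63 and 36. Without a count filter it called 2, 1 and 0. The block with no fold-change threshold gave 169, 104 and 61. With the block and 1 library left out, the counts ran from 20 to 81 for Chd8 siRNA (20 without control siRNA 3), from 7 to 131 for Tsc2 siRNA (7 without control siRNA 3, 131 without Tsc2 siRNA 1) and from 4 to 130 between the 2 (4 without Chd8 siRNA 3, 130 without Tsc2 siRNA 1). For Chd8 siRNA the block also added calls of Gabpa, of Chd8 itself and of the fibroblast marker Col1a1 (edgeR adjusted p = 0.00343, 0.00777 and 0.0218), and for Chd8 against Tsc2 siRNA those of Gabpa and Chd8 (0.00639 and 0.0156). It changed no other call among the members, targets and lists. At an FDR of 0.05 with no fold threshold, the members that appeared were mt-Atp6 and mt-Cytb, with the block and without Tsc2 siRNA 1, for Chd8 against Tsc2 siRNA.

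Leaving out 1 library moved the median log2 fold change of the nuclear members for Chd8 siRNA between 0.08 (without control siRNA 1) and 0.27 (without control siRNA 2), and between 0.11 and 0.23 with the block. That of the mitochondrially encoded members for Chd8 siRNA ran from −0.14 (without control siRNA 1) to 0.22 (without Chd8 siRNA 1), and from 0.01 to 0.12 with the block. For Tsc2 siRNA the mitochondrial median ran from −0.39 (without control siRNA 1) to −0.07, and from −0.24 to −0.05 with the block. For the nuclear members it ran from −0.02 to 0.19. Between Chd8 and Tsc2 siRNA the nuclear median ran from 0.01 (without Chd8 siRNA 2) to 0.17, and from 0.03 to 0.19 with the block, and the mitochondrial one from 0.09 to 0.37 (without Chd8 siRNA 1). Their causes were not tested. Of the members and targets with an unadjusted p under 0.05, none changed sign under an alternative (7 of 7, 2 of 2 and 4 of 4 kept it). Since they were picked by that p and the alternatives reuse the same libraries, a kept sign is no independent support. Of the other named genes, 25 of 44, 24 of 42 and 19 of 40 did under at least 1, mt-Co3 among them. With 3 libraries a group, the median shifts of the nuclear and mitochondrially encoded members were smaller than the range of library medians within the control siRNA group. This does not hold for every single member, since 8 lay wholly above the controls with Chd8 siRNA, against 4.17% of all genes. Within replicate numbers the nuclear medians for Chd8 siRNA were 0.25, 0.11 and 0.16.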
